A study of Homo sapiens with 2 samples.

Results

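The 4 genes BCL2, BCL2L1, MCL1 and BCL2L11 were examined for PAX5 binding in the leukaemia cell line NALM6, an established human line of B-cell precursors. A called PAX5 peak was counted for a gene when its summit, the position of highest read coverage, lay inside the gene or within 10 kb of either end. In all, 13 of 21361 peaks met this rule, 6 at BCL2L1, 5 at BCL2, 2 at BCL2L11 and 0 at MCL1. The data are 1 ChIP-seq sample, in which DNA bound by PAX5 was pulled down with an antibody from Abcam and sequenced, and 1 input control that received no antibody. Both carry NALM6 as cell line in the labels, both were grown for 4 days in phenol red-free medium with serum and glutamine, and neither received a treatment. The title of the control bears the further name RXL, whose meaning is not stated. There are no replicates, so no p-value was computed, and all intervals cover counting error at 95% only.

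Proteins of the BCL2 family set the threshold for apoptosis at the mitochondrial outer membrane. BCL2, BCL-XL (the long product of BCL2L1) and MCL1 hold back the pore-forming members BAX and BAK, and BIM, the product of BCL2L11, is a BH3-only protein that binds these guardians and promotes cell death. B-lineage cells depend on different guardians at different stages, and BIM removes B cells that lose survival signals or react with self. PAX5 is the paired-domain transcription factor that sets and keeps B-cell identity.

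The 4 loci differed in how many peaks they held and in where the peaks lay. At BCL2L1, 5 of the 6 summits lay between the ends of the gene, spaced along it, and the strongest peak of all 13 was among them. At BCL2, 3 of the 5 summits lay at or just upstream of the gene start and the other 2 far inside the gene. At BCL2L11 both summits lay at the gene start. No peak was called at MCL1. Gene starts and ends are those of the counting windows, which are given to 1 kb on hg19, so a distance from a start carries an uncertainty of up to 1 kb and does not settle on which side of the start a nearer summit lies. Exons and introns of this build were not placed here.

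**Figure D1:**
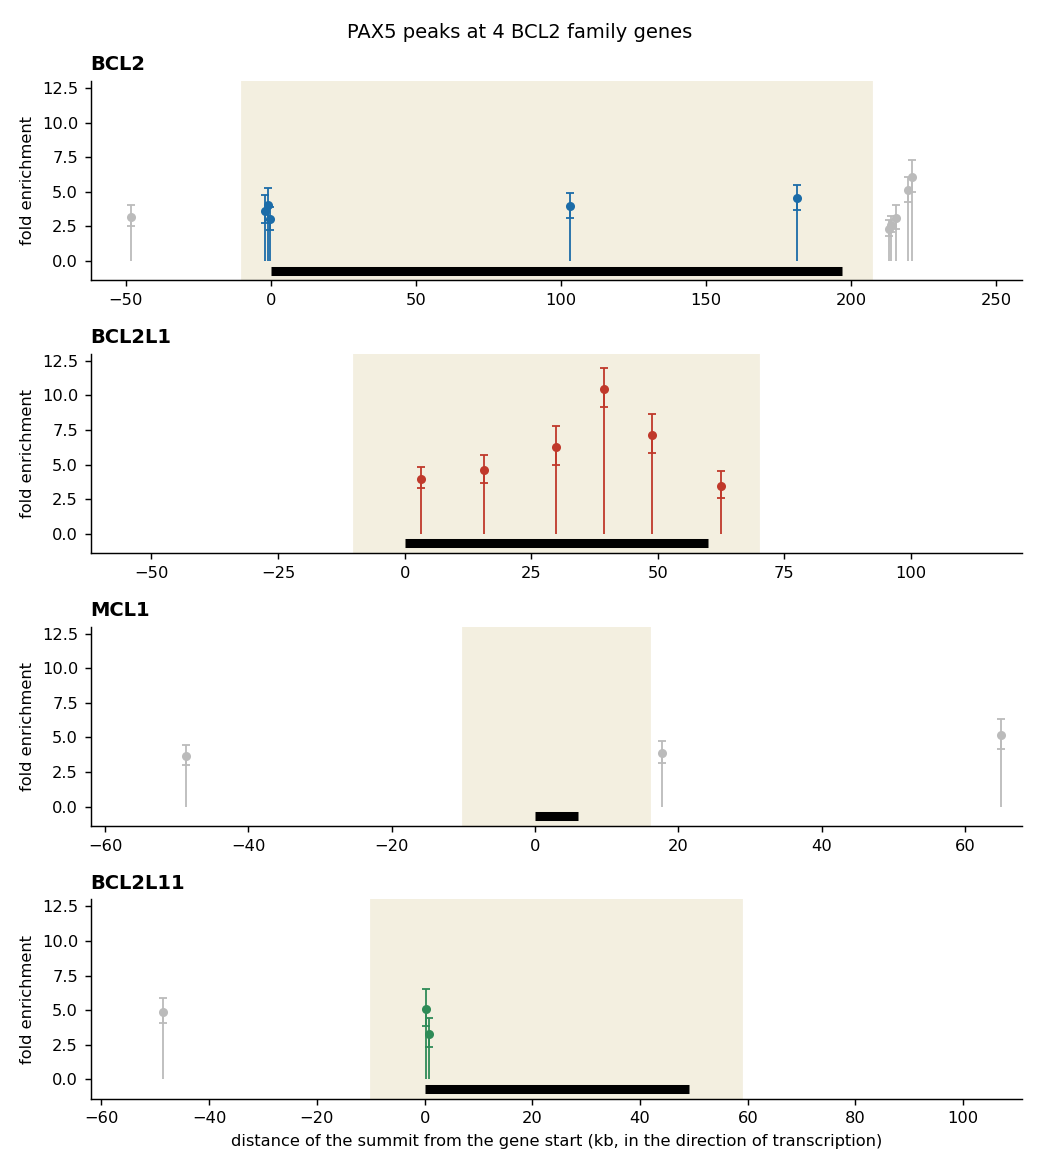
Fold enrichment of PAX5 peaks (vertical axis, ChIP over control background) against the distance of each summit from the gene start in kb, in the direction of transcription, for BCL2, BCL2L1, MCL1 and BCL2L11. Black bars are the genes, shaded areas the counting windows with 10 kb on each side, coloured points the 13 counted peaks, grey points peaks outside the windows, and error bars 95% Poisson intervals of the ChIP reads. The 6 BCL2L1 peaks reach their highest fold of 10.5 in the middle of the series, while the BCL2L11 peaks sit at the start and the MCL1 window is empty.

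Promoter sequences are shown first, since the loci differ in whether a peak lay at the gene start. They come from RefSeq on GRCh38.p14, not from hg19, and were not overlaid with the peaks. Of the 4 genes, 3 (BCL2, BCL2L1 and BCL2L11) had an entry, BCL2L1 with 2 starts. Each sequence is the 250 bases before the annotated start, 5′ to 3′ on the strand of the gene. BCL2L11, with a peak pair at its start, and the outermost start of BCL2L1, with no peak within 2 kb of the start used for counting, are printed. The second BCL2L1 start lies further inside the gene, towards its peak at 3.23 kb, so this contrast depends on the start chosen. Capitals mark a match to the loose PAX5 core GCNTGNC. BCL2L11 lies on the plus strand at chr2:111120664-111120913 and BCL2L1 on the minus strand at chr20:31723964-31724213.
BCL2L11: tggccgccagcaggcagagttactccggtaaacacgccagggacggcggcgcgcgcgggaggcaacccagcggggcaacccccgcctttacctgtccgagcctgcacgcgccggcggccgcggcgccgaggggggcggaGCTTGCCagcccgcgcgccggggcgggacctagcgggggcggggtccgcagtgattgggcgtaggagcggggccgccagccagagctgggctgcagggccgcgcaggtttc
BCL2L1: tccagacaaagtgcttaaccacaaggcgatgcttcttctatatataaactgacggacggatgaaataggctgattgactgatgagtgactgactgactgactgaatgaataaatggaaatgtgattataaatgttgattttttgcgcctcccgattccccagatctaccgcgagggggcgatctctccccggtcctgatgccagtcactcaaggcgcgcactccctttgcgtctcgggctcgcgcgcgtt

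The BCL2L11 sequence was the richer in G and C, with 76.8% of its bases and 34 CpG dinucleotides, a GC share that 7.47% of all 35116 RefSeq promoters reach. The printed BCL2L1 sequence had 50% and 17 CpG dinucleotides, against medians of 58% and 11 over all promoters, and its second entry had 60.4% and 12. The BCL2 entry, which lies inside the outermost RefSeq bounds of that gene, had 70% and 24. The core GCGTGAC was searched on both strands and matched none of the 4 entries, as against 2.20% of all promoters with a match. The looser GCNTGNC, which every GCGTGAC also matches, matched BCL2L11 once, as GCTTGCC beginning 111 bases before the start, and none of the other 3 entries. It occurs in 44.6% of all promoters, so the match is a description of these letters and no more. The sequence under the peaks was not used here.

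At BCL2L1, on chromosome 20 and the minus strand, 5 separate peaks lay inside the gene and 1 beyond its end. The strongest of its 6 peaks spanned 786 bp from 30272188 to 30272973, 39.4 kb downstream of the start. Its summit held 208 ChIP reads (181 to 238, exact Poisson), where the control background was 10.0 reads, and it had a deposited fold of 10.5 (9.13 to 12.0 with the control taken as fixed). The control count is given at the depth of the control, to which the caller scaled the ChIP reads by 0.55 before taking the fold. This peak ranked 296 by fold, 169 by reads and 151 by −log10 q (72.6) among all 21361 peaks. It was the only BCL2L1, BCL2 or BCL2L11 peak whose fold passed 10, a level that 1.72% of all peaks reached. With the control taken as fixed, its fold interval did not overlap that of the next strongest BCL2L1 peak. The 10 control reads under it carry a Poisson interval of 4.80 to 18.4, in proportion wider than that of the ChIP reads.

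The neighbours of this BCL2L1 peak on either side were the second and the third by fold. The peak from 30262658 to 30263746, 48.8 kb downstream of the start, had 99 reads (80.5 to 121) over a background of 6.75 and a fold of 7.16 (5.84 to 8.69). At 1089 bp it was the widest of the 13. The peak from 30281801 to 30282342, 29.9 kb downstream of the start, had 78 reads (61.7 to 97.3) over a background of 6.0 and a fold of 6.27 (4.99 to 7.80). The fold intervals of these 2 peaks overlapped with the control taken as fixed, and their order was not tested.

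Towards both ends of BCL2L1 the fold was lower. The peak at 15.7 kb from the start had 82 reads and a fold of 4.61 (3.69 to 5.70). The peak nearest the start, 3.23 kb inside the gene, had 107 reads, the second highest count of the 13, but stood on the highest control background, 14.0 reads, and had a fold of 3.99 (3.28 to 4.81). The last peak lay 2.40 kb beyond the end of the gene, with 48 reads and a fold of 3.43 (2.56 to 4.50). From the start to beyond the end, the folds were thus 3.99, 4.61, 6.27, 10.5, 7.16 and 3.43. Between neighbouring peaks lay 8441 to 13736 bp without a call.

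**Figure D2:**
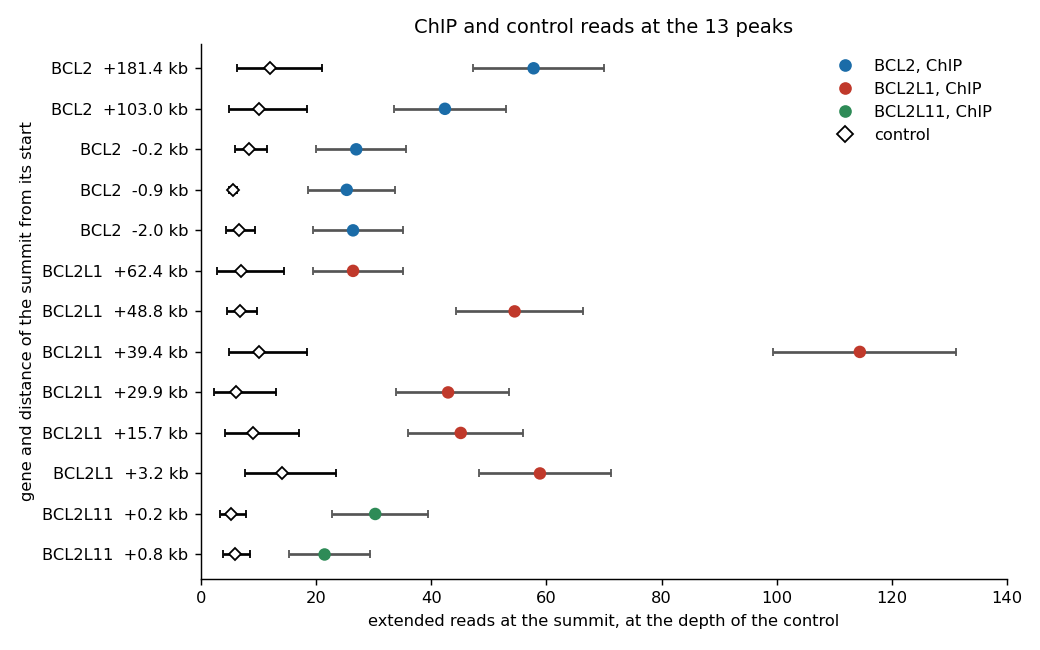
ChIP pileup (filled circles, scaled to the depth of the control) and control background (open diamonds) in extended reads at the summits of the 13 peaks, labelled by gene and distance from the gene start; bars are 95% Poisson intervals of the reads counted. The BCL2L1 summit at 39.4 kb stands at a pileup of 114, beyond the intervals of all other 12 peaks, while the 4 peaks at the BCL2 and BCL2L11 starts lie between 21.5 and 30.3.

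At BCL2, on chromosome 18 and the minus strand, no peak reached a fold of 5. The strongest spanned 682 bp from 60805297 to 60805978, 181 kb downstream of the start and 15.6 kb before the end of the gene. It held 105 reads (85.9 to 127) over a background of 12.0 and had a fold of 4.52 (3.71 to 5.46). The other internal peak, from 60883728 to 60884319 and 103 kb downstream of the start, had 77 reads (60.8 to 96.2) over a background of 10.0 and a fold of 3.94 (3.13 to 4.91). Their fold intervals overlapped. The read interval of the first lay above those of the peaks at the BCL2 start, and that of the second overlapped them.

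At the BCL2 start and upstream of it, towards its neighbour KDSR in the RefSeq gene order, 3 small peaks followed each other. On which side of the start the nearer 2 lay is not settled. The one nearest the start, from 60987115 to 60987560 with its summit at 0.219 kb, had 49 reads (36.3 to 64.8) over a background of 8.32 and a fold of 3.0 (2.25 to 3.93), the lowest of the 13. The next, from 60987744 to 60988083 with its summit at 0.897 kb, had 46 reads (33.7 to 61.4) over 5.56 and a fold of 4.01 (2.98 to 5.30). The third, from 60988811 to 60989100 with its summit at 2.01 kb, had 48 reads (35.4 to 63.6) over 6.52 and a fold of 3.64 (2.72 to 4.79). Their read counts were within counting error of each other, and all 3 fold intervals overlapped. The first 2 were separated by 183 bp and the last 2 by 727 bp.

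BCL2 had further peaks just outside its window. In the stretch 213 to 221 kb downstream of the start, beyond the end of the gene towards PHLPP1, 5 peaks had folds between 2.30 and 6.04. The strongest of these, 221 kb downstream of the start, held 108 reads over a background of 9.0, a fold (6.04, 4.97 to 7.27) above that of any peak counted for BCL2. Its interval overlapped that of the strongest internal peak. Upstream, the next summit was 48.0 kb from the start with a fold of 3.20.

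MCL1, on chromosome 1 and the minus strand, had no called peak from 150537000 to 150563000. The nearest summit lay 11.7 kb beyond the end of the gene, on the side of ADAMTSL4, just outside the counted 10 kb. That peak, from 150535096 to 150535561, had 90 reads (72.4 to 111) over a background of 12.0 and a fold of 3.89 (3.14 to 4.76). On the upstream side, towards ENSA, the nearest summit was 48.7 kb away with 105 reads and a fold of 3.67. A count of 0 allows a density of up to 11.5 peaks per 100 kb over this 26 kb window by the limit of 3 counts. The exact 2-sided Poisson interval, used for the densities of the other windows, would reach 14.2. A summit there would have needed 17 ChIP reads to reach the lowest −log10 p of the list (3.74) over the genome mean of the control (2.12 reads), 37 over the median background of all peaks (8.0) and 53 over the highest of the 13 (14.0). Coverage below these levels was not detectable at this depth, and coverage without a call was not used here.

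BCL2L11, on chromosome 2 and the plus strand, had a pair of peaks at its start and none elsewhere in the gene. On which side of the start the 2 summits lay is not settled. The first peak spanned 769 bp from 111877724 to 111878492, with its summit 0.189 kb from the start given for the gene. It had 55 reads (41.4 to 71.6) over a background of 5.17 reads, the lowest background of the 13, and a fold of 5.06 (3.85 to 6.54), just above the level of 5. The second, from 111878629 to 111879105 with its summit at 0.799 kb, had 39 reads (27.7 to 53.3), the fewest of the 13, over 5.85 and a fold of 3.28 (2.37 to 4.43). The intervals of the 2 peaks overlapped, those of the folds with the control taken as fixed, and their order was not tested. They were separated by 136 bp, and a single enriched region with an uncalled dip cannot be told apart from a pair of sites in this list.

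The surroundings of BCL2L11 were asymmetric. Downstream of the pair no summit was listed in the rest of the gene, and the next was 311 kb beyond its end, with a fold of 4.40. Upstream, on the side of the neighbouring gene ACOXL, a summit at 48.5 kb had 114 reads and a fold of 4.90 (4.06 to 5.87). A broad peak of 1732 bp at 63.1 kb had 136 reads (114 to 161) over a background of 8.0 and a fold of 8.43 (7.09 to 9.95). With the control taken as fixed, its fold interval lay above that of either peak at the BCL2L11 start. The counting error of the control is left out of these intervals, so this order was not tested. No peak is assigned to a target gene by these distances.

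The peaks at the BCL2 and BCL2L11 starts held few reads. Within 2 kb of a start, 4 peaks were called, 2 at BCL2 and 2 at BCL2L11, with 39 to 55 reads, all below the median of 61 over all peaks. The 2 peaks between 2 and 5 kb from a start differed, with 48 reads upstream of BCL2 and 107 inside BCL2L1. With starts given to 1 kb, the former, at 2.01 kb, could fall within 2 kb. BCL2L1 has a second RefSeq start further inside the gene, nearer the peak with 107 reads. Which peaks count as lying at a start thus depends on the starts used. The 7 peaks over 5 kb from a start, 5 at BCL2L1 and 2 at BCL2, had 48 to 208 reads, and 6 of them were above that median. The control background was 5.17 to 8.32 reads for the 4 and 6.0 to 12.0 for the 7. The median fold was 3.65 for the 4 and 4.61 for the 7, with ranges of 3.0 to 5.06 and 3.43 to 10.5 that overlap. This division was made after the values were seen and was not tested.

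Against the whole list, the 13 peaks had folds near the middle. Their median was 4.01, with a range of 3.0 to 10.5, against 3.89 for all peaks. A fold of at least 5 was reached by 4 of the 13 (30.8%), 3 at BCL2L1 and 1 at BCL2L11, against 25% of all peaks, a share near the background. The median read count was 77 against 61, the median background 7.0 against 8.0 reads, and the median width 477 against 383 bp, with 10 of the 13 wider than the median. All 13 had identical borders in the cleaned list deposited beside the full one, as had 21351 of all 21361 peaks (100% when rounded).

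**Figure D3:**
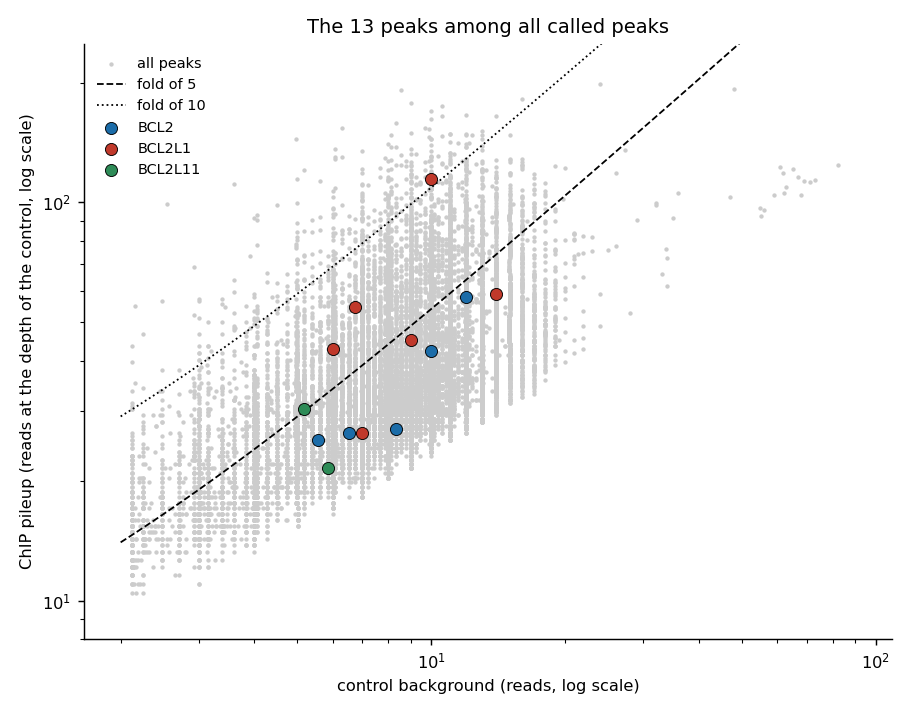
ChIP pileup at the summit (vertical axis, reads at the depth of the control, log scale) against control background (horizontal axis, reads, log scale) for all 21361 peaks (grey) and the 13 peaks at BCL2, BCL2L1 and BCL2L11 (coloured). The lines mark a fold of 5 and of 10 with the caller's pseudocount of 1; the points at BCL2 all lie below the line for 5 and a single BCL2L1 point lies above that for 10.

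Per length, the BCL2L1 window held the most peaks. Over its 80 kb there were 7.5 peaks per 100 kb (2.75 to 16.3), against a mean of 0.725 on chromosomes 1 to 22 and X and 1.25 on chromosome 20. When these chromosomes were divided into tiles of 80 kb, 1.54% of the tiles held 6 or more peaks, and 2.81% of the 783 tiles on chromosome 20. The 217 kb BCL2 window held 2.30 per 100 kb (0.748 to 5.38), against 0.534 on chromosome 18. Of tiles of that length, 10.7% held 5 or more peaks, and 7.82% of the 358 on chromosome 18. The 69 kb BCL2L11 window held 2.90 per 100 kb (0.351 to 10.5), against 0.614 on chromosome 2. Of tiles of that length, 11.3% held 2 or more, and 9.41% of the 3519 on chromosome 2. The empty MCL1 window is the common case, since 87.6% of tiles of 26 kb held no peak, and 86.0% of the 9557 on chromosome 1. The exact density intervals of the 4 windows overlapped, and they treat peaks as independent, although peaks cluster. The tiles take no account of genes or of unsequenced stretches, and the 4 windows are centred on genes. Peaks covered 4.48% of the BCL2L1 window, 1.81% of the BCL2L11 window and 1.08% of the BCL2 window.

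**Figure D4:**
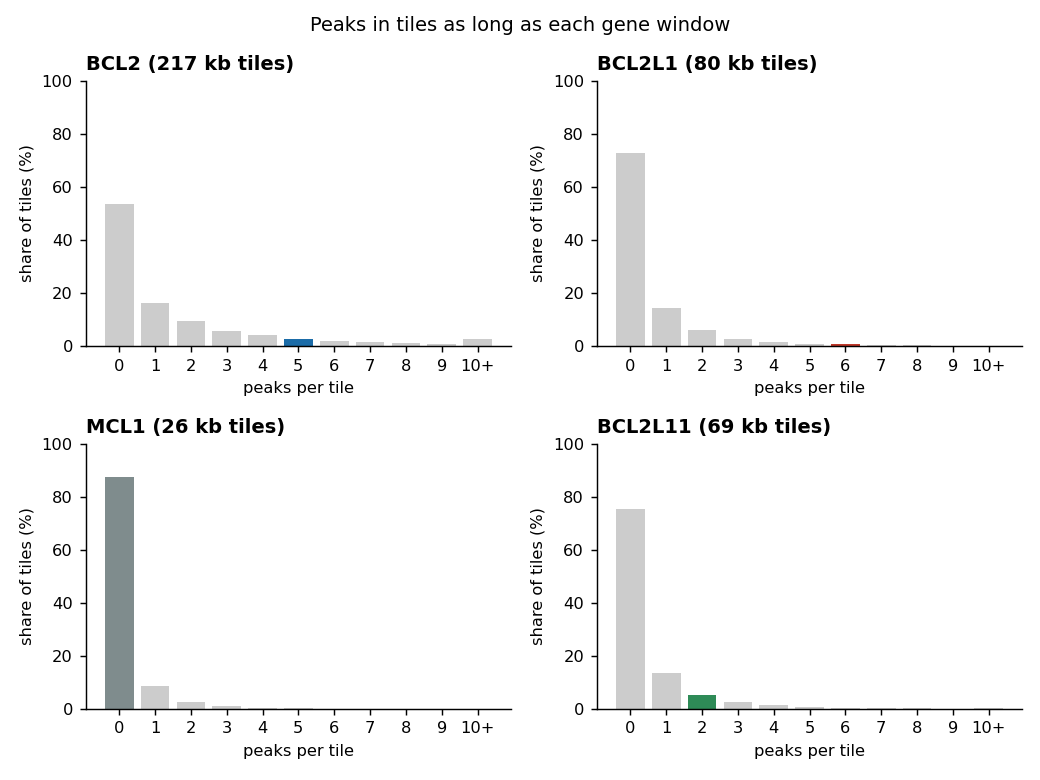
Share of tiles in percent (vertical axis) by the number of peaks in a tile (horizontal axis), with tiles as long as the window of each gene over chromosomes 1 to 22 and X; the coloured bar marks the number found at that gene. The bar for BCL2L1, at 6 peaks, lies in the thin tail of its panel, and that for MCL1, at 0, is the tallest of its panel.

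Close pairs such as those at the BCL2 and BCL2L11 starts were uncommon in the list. A gap of at most 200 bp separated 3.48% of all neighbouring peaks on the same chromosome. Among the 10 neighbouring pairs counted here, 2 had such a gap, 183 bp at the BCL2 start and 136 bp at BCL2L11. Both were noticed before the share over all neighbouring peaks was computed. The other 8 gaps ranged from 727 to 102795 bp. The 10 pairs lie inside windows of at most 217 kb, which leaves out longer gaps, so they are not a like set to all neighbouring peaks. Within 500 kb of each gene, the number of peaks was 18 for BCL2, 24 for BCL2L1, 13 for MCL1 and 12 for BCL2L11. That is 1.5, 2.26, 1.29 and 1.14 peaks per 100 kb in this order, against the mean of 0.725. A fold of 10 was reached by 2 of the 24 around BCL2L1, its own strongest peak included, and by 1 of the 12 around BCL2L11. It was reached by 0 of the 18 around BCL2 and 0 of the 13 around MCL1, against 1.72% of all peaks. Tiles of these longer stretches were not counted, so no share of tiles stands beside these densities, and no excess was tested.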

How the data were processed

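The submitters' processing notes name BWA and the build hg19. MACS2 version 2.1.1.20160309 called peaks at a q-value threshold of 0.05 on a pooled ChIP alignment of 46190180 tags against a combined control of 25416858 tags, with extension to 225 bp and no model, per the file headers. The number of pooled libraries is not stated. For each peak the deposited table gives the pileup signal, the fold ratio of pileup to local control background, and −log10 p and −log10 q, all made by the authors' caller. Positions are on hg19 and count from 1. The authors' cleaning of the second list is not described.

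ChIP reads at a summit were recovered as pileup divided by 0.55 (100% whole within 0.005 pileup units), and the control background as (pileup + 1)/fold − 1. The caller takes the largest of the genome mean and of windows of 225, 1000 and 10000 bp. Intervals of reads are exact Poisson, and those of folds hold the control fixed. Tiles began at each chromosome's first summit and ended before its last. Every peak in a window was counted and is described when strongest at its gene, within 2 kb of the start or of fold 5 or more; other peaks described, and those outside the windows, were added after their values were seen. The genes and lists were chosen with earlier results of these data known. Other BCL2 family genes were not placed, since hg19 annotation was not used here. Promoters and gene order are from RefSeq (GRCh38.p14). Scripts recovered reads and background in 100% of 21361 simulated peaks. These were built with the same formulas, so this checks rounding and code only, not the caller. Versions were bedtools 2.31.1, matplotlib 3.10.9, scipy 1.17.1, pandas 2.3.3, numpy 2.4.6 and Python 3.11.15.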

Additional observations from a re-analysis of the deposited data

How the results depend on the processing

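The count of 13 peaks was 9 without flanks, 11 with a −log10 q of at least 5, 11 with peaks within 500 bp merged, 13 by any overlap and 13 in the cleaned list under either overlap rule, but 22 with flanks of 50 kb, which by construction adds peaks beyond the genes. The median fold of 4.01 lay between 3.97 and 4.61 with other flanks or the stricter q, and was 13.9 when the genome mean of the control replaced the local background, which is lower by construction. The 4 peaks within 2 kb of a start were 4 within 1 kb, 6 within 5 kb and 2 with a −log10 q of at least 5, since 1 peak of each pair at BCL2 and BCL2L11 had a lower value. The strongest peak of BCL2, BCL2L1 and BCL2L11 was the same when ranked by fold, −log10 q or reads. No paired analysis was possible because each group holds 1 sample. Depth limits what can be said of MCL1 and of the order of peaks within BCL2, BCL2L1 and BCL2L11, and a pool hides the spread between its libraries.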
